A study of Mus musculus with 4 samples.

Results

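Expression of 10 genes of the erythropoietin pathway was compared between erythroblasts of mice without Parp2 and of wild type mice. They were the receptor gene Epor, its kinase gene Jak2, the transcription factor genes Stat5a and Stat5b, the feedback inhibitor genes Cish, Socs1, Socs2 and Socs3, the kinase gene Pim1 and the hormone gene Erfe, also known as Fam132b. A gene was read from the probe set that named it alone and had the highest mean over the arrays, a rule that gave 10 of 10 members among 19938 genes. The samples were bone marrow cells sorted for Ter119 and CD71, surface proteins of red cell precursors, from mice of the C57BL/6 background. The wild type group (WT) and the knockout group (genotype Parp-2-/-) had 2 arrays each, 4 in all. Parp2 encodes a poly(ADP-ribose) polymerase that is activated by DNA breaks. No label gives the age, the sex or the number of mice behind an array, nor which part of Parp2 is deleted, nor whether the arrays came from separate mice, so p-values reflect no more than how far these arrays differ among themselves, and that spread may be technical. The arrays are called WT1, WT2, KO1 and KO2 here, after their genotype and the replicate number in their titles.

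Erythropoietin is the hormone on which red cell precursors depend for survival and expansion. Its receptor has no enzyme activity of its own and signals through the bound tyrosine kinase JAK2, which phosphorylates STAT5A and STAT5B; these pair, enter the nucleus and bind paired TTC and GAA half-sites in DNA. Among the genes they switch on are Cish and the Socs genes, whose products bind the receptor or JAK2 and damp the signal, Pim1, a survival kinase, and Erfe, whose product erythroferrone travels from erythroblasts to the liver and lowers hepcidin so that more iron is released.

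The feedback genes Cish and Socs3 carry the STAT5 half-site pattern TTCNNNGAA beside a transcript start, and their sequences are shown with that of Erfe, the member with the lowest p. The pattern is its own reverse complement, so both strands are covered, and it was searched in RefSeq promoter windows (GRCm38.p6) of 250 bases before to 50 bases after the transcript start that the table uses. It was found in 2 of the 9 members with a window, Cish and Socs3. The window of Cish held it at 2 places, which begin at bases 1 and 12 counted from that start, and that of Socs3 at 1 place, which begins at base -154. Of all 32851 windows 8.3% held at least 1 match and 0.457% at least 2. A match is a stretch of letters and not a shown binding site. Capitals mark the matches, and the stretches lie at chr9:107296655-107296683 (plus strand), chr11:117969502-117969530 (minus strand) and chr1:91366180-91366304 (plus strand).
Cish: agttTTCCTGGAAagTTCTTGGAAatctg
Socs3: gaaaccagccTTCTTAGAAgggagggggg
Erfe: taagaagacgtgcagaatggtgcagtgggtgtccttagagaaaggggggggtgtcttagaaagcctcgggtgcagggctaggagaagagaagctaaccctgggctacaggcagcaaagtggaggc
The stretch of Cish holds both matches, 2 bases apart. That of Socs3 lies inside the span of the gene in the RefSeq gene table, which reaches further upstream than the start used for the window. That of Erfe is the part of its window, 125 bases, that lies before the first base of the gene in that table, and no match lay in the whole window of Erfe.

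Every value below is a log2 expression value of a probe set, a difference is knockout minus wild type unless stated, and a difference of 1 is a factor of 2. Values are given in the order WT1, WT2, KO1, KO2. Array medians over the annotated probe sets ranged from 5.23 to 5.49, and the interquartile range was 1.98 on KO2 and 2.62 to 2.94 on the others. The differences of members and the list medians are therefore also given without KO2 where that turns or shrinks them. The differences of other named genes are not given without KO2, and some may rest largely on that array. Parp2 read 8.24 and 7.65 in wild type and 7.11 and 6.70 in the knockout, a difference of -1.04 ± 0.40 (SE, n = 2 per group) in the direction of the labels (limma, adjusted p = 0.9999). The titles do not say what the replicate number marks, so differences are also given within each number.

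None of the 10 members passed the limma test (adjusted p under 0.05 over 23410 probe sets), and each had an adjusted p of 0.9999; 0 of 10 had an unadjusted p under 0.05. The test called 0% of all probe sets, and 2.08% had an unadjusted p under 0.05. Erfe, Pim1 and Cish had the largest positive differences and Stat5b the largest negative one. The knockout arrays lay wholly above the wild type arrays for 2 members, Erfe and Socs2, and wholly below for 0; over all genes these shares were 16.4% and 9.62%, or 26% in either direction. The median difference of the members was +0.11, beside +0.076 over all 19938 genes, and 6 members had a higher and 4 a lower mean in the knockout, where 58.5% of all genes had a higher one.

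**Figure D1:**
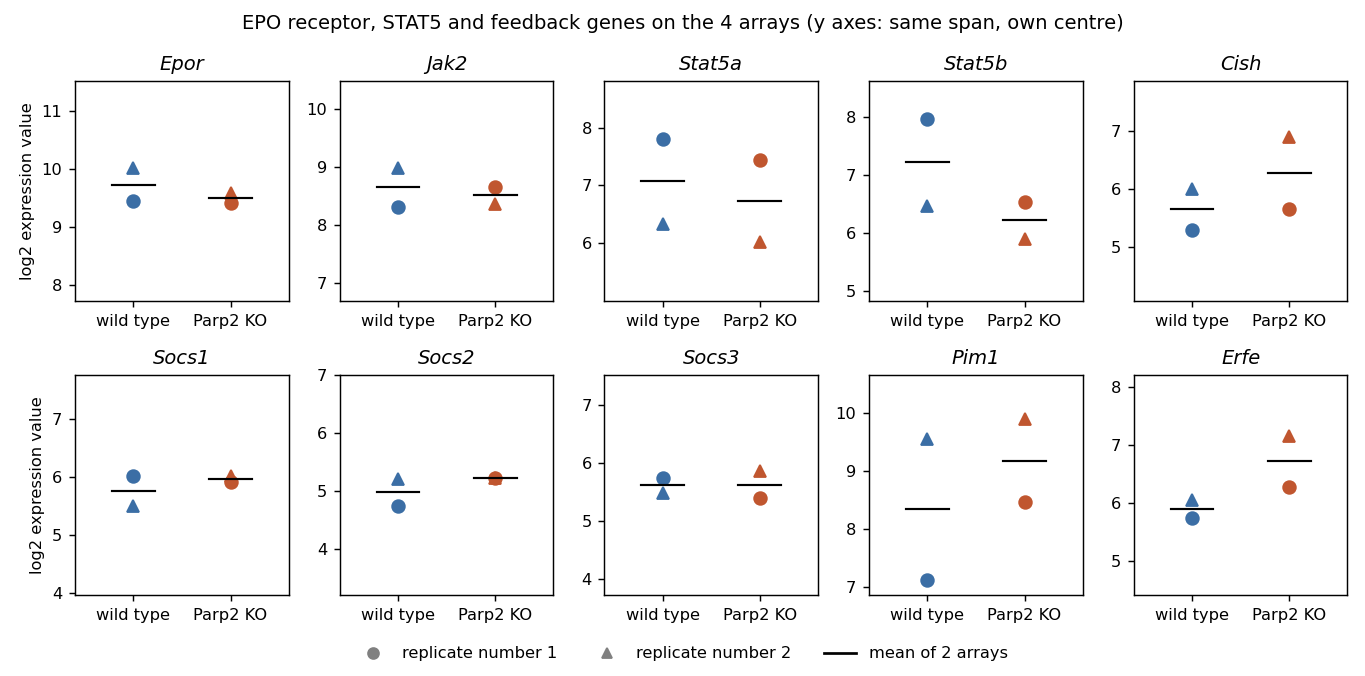
Log2 expression value (y axis, the same span in every panel but centred on each gene) of the 10 genes on the wild type and Parp2 knockout (KO) arrays. Circles are replicate 1, triangles replicate 2 and bars the mean of 2 arrays; Erfe and Socs2 show no overlap between genotypes, and Stat5a, Stat5b and Pim1 lie far apart within a genotype.

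The receptor and its kinase were read first. Epor was at 9.44 and 10.02 on WT1 and WT2 and at 9.42 and 9.59 on KO1 and KO2. WT2 was the highest and the other 3 arrays lay close together, so the groups overlapped. The difference was -0.23 ± 0.39 (SE, n = 2 per group), with a 95% interval of -1.15 to +0.69 from the limma fit. It was +0.060 without WT2 and -0.045 after repeated quantile normalisation. The interval leaves room for a 2-fold lower level, so the data do not show that the receptor transcript was equal in the genotypes. Jak2, the kinase that the receptor needs to signal, was at 8.32 and 8.99 in wild type and at 8.66 and 8.36 in the knockout. Its groups overlapped, with a difference of -0.14 ± 0.40 (interval -1.10 to +0.82). The sign of Jak2 depended on the arrays and the scaling: it was +0.34 within replicate 1 and -0.63 within replicate 2, +0.19 without WT2, +0.0067 without KO2 and +0.041 after repeated quantile normalisation.

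The genes whose values over the 4 arrays were most like those of Epor were Stag2, Kif18b and Ifi27. Among 2613 genes with a mean of at least 8, their root mean square differences from Epor, after each gene was centred on its own mean, were 0.019, 0.0315 and 0.0356 on the log2 scale. With 4 arrays, of which 1 stood above the other 3, this is a description of these arrays alone.

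The STAT5 genes lie next to each other on chromosome 11 and encode closely related proteins, and whether probes of one also bind transcripts of the other was not tested. Stat5a was at 7.81 and 6.34 in wild type and at 7.44 and 6.02 in the knockout. Both replicate 1 arrays were high and both replicate 2 arrays low, and the genotypes overlapped. The difference was -0.35 ± 0.66 (interval -1.91 to +1.21), and it was nearly the same within replicate 1 (-0.37) and within replicate 2 (-0.32). It turned to +0.39 without WT1 and to +0.36 without KO2.

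Stat5b was at 7.97 and 6.46 in wild type and at 6.54 and 5.89 in the knockout. WT1 stood far above the other arrays, and KO1 lay just above WT2, so the groups overlapped by a small margin. The difference was -1.0 ± 0.56 (SE, n = 2 per group; interval -2.35 to +0.34), a 2.00-fold lower mean. It was negative within replicate 1 (-1.43) and within replicate 2 (-0.57) and with any array left out, from -1.75 (WT2 left out) to -0.25 (WT1 left out). Without KO2 it was -0.68.

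**Figure D2:**
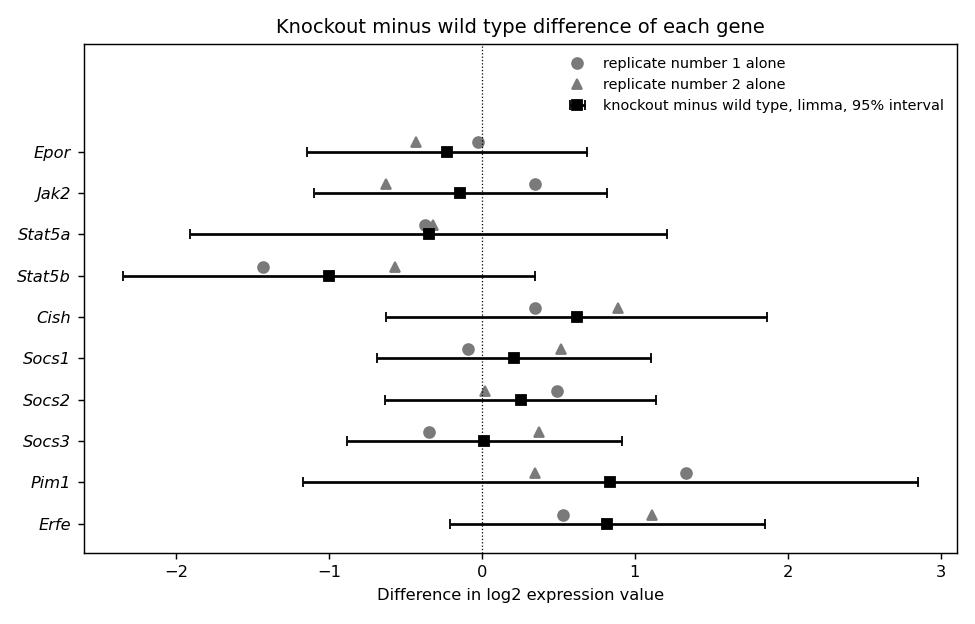
Difference in log2 expression value between knockout and wild type (x axis) for each gene (y axis). Black squares with bars are the limma difference and its 95% interval, and grey symbols the difference within replicate 1 (circle) or replicate 2 (triangle). Every interval includes 0. For 7 of 10 genes both grey symbols lie on the same side of 0, though for Epor and Socs2 1 of them is close to 0.

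The 4 feedback inhibitors had mean differences from +0.014 to +0.62. Cish, the first-described inhibitor of this class and a direct STAT5 target, was at 5.29 and 6.00 in wild type and at 5.64 and 6.89 in the knockout. KO2 was highest and KO1 lay between the wild type arrays. The difference was +0.62 ± 0.52 (interval -0.63 to +1.86), with +0.35 within replicate 1 and +0.89 within replicate 2. It rested on KO2, without which it was -0.0047; without WT1 it was +0.27 and without KO1 +1.24.

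Socs2, an inhibitor best known from growth hormone signalling, was at 4.75 and 5.21 in wild type and at 5.23 and 5.23 in the knockout. The groups did not overlap, but WT2 was 0.016 below KO2. The difference was +0.25 ± 0.37 (interval -0.63 to +1.14), and it was +0.019 without WT1 and +0.49 without WT2. A second probe set of Socs2, with a lower mean, read 4.02 and 3.78 in wild type and 5.64 and 4.19 in the knockout, and differed by +1.02 ± 0.53. Both probe sets put the knockout arrays above the wild type arrays, and the mean of the 2 probe sets differed by +0.63. On the first probe set Socs2 was below the array median on WT1, WT2 and KO2 and level with it on KO1, so its signal was low. On the second it was far below the median on WT1, WT2 and KO2. Its knockout arrays also lay far apart there, with KO1 well above KO2, while they were nearly equal on the first.

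Socs1, which inhibits JAK kinases directly, was at 6.02 and 5.50 in wild type and at 5.92 and 6.02 in the knockout. WT2 was low and the other 3 arrays were close together. The difference was +0.21 ± 0.38 (interval -0.69 to +1.11), and it was -0.046 without WT2 and +0.16 without KO2. Socs3, which binds both the receptor and JAK2, was at 5.75 and 5.49 in wild type and at 5.40 and 5.87 in the knockout, with a difference of +0.014 ± 0.38 (interval -0.89 to +0.91). Its sign was opposite within replicate 1 (-0.35) and replicate 2 (+0.37), and the second probe set of Socs3 showed the same opposition (-0.60 and +0.66). The Socs3 difference was -0.22 without KO2, -0.11 without WT2 and -0.059 with arrays centred on their medians. On their lowest arrays Cish, Socs1 and Socs3 also came near the array median. Cish read 5.29 on WT1 (median 5.24), Socs1 5.50 on WT2 (median 5.34) and Socs3 5.40 on KO1 (median 5.23).

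Pim1, a kinase whose transcription follows STAT5 activity in many blood cells, was the member with the widest spread. It was at 7.12 and 9.55 in wild type and at 8.45 and 9.90 in the knockout. Both replicate 2 arrays were high, WT1 was the lowest, and the groups overlapped. The difference was +0.84 ± 0.84 (interval -1.17 to +2.85), a 1.79-fold higher mean, with +1.33 within replicate 1 and +0.35 within replicate 2. It was +2.06 without WT2, +1.56 without KO1, +0.12 without KO2 and -0.38 without WT1.

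Erfe was at 5.75 and 6.06 in wild type and at 6.28 and 7.17 in the knockout. Both knockout arrays lay above both wild type arrays, and KO2 was the highest. The difference was +0.82 ± 0.43 (SE, n = 2 per group), a 1.77-fold higher mean, with an interval of -0.21 to +1.85. It was +0.53 within replicate 1 and +1.11 within replicate 2. With 1 array left out it lay between +0.38 (KO2 out) and +1.26 (KO1 out), and without overlap between the groups its sign could not turn.

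Within both replicate 1 and replicate 2, Stat5a, Stat5b and Epor had lower and Cish, Pim1, Erfe and Socs2 higher values in the knockout. Epor within replicate 1 (-0.024) and Socs2 within replicate 2 (+0.016) were nearly equal in the genotypes. Jak2, Socs1 and Socs3 changed sign between the numbers. The genotype difference of none of these genes passed the test. In all, 7 of 10 members had the same sign within both numbers, beside 49.2% of all genes. For Erfe and Socs2 the same sign follows from the lack of overlap between the groups. The number itself accompanied differences of the same order. Between replicates 2 and 1, averaged over the genotypes, Pim1 differed by +1.94, Cish by +0.98 and Erfe by +0.60, and Stat5a by -1.44 and Stat5b by -1.07. This difference was larger than that between the genotypes for 7 of 10 members, and for 60.7% of all genes. For 5 members (Epor, Stat5a, Stat5b, Cish and Pim1) the replicate 2 arrays lay wholly above or wholly below the replicate 1 arrays, as they did for 46.3% of all genes.

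**Figure D3:**
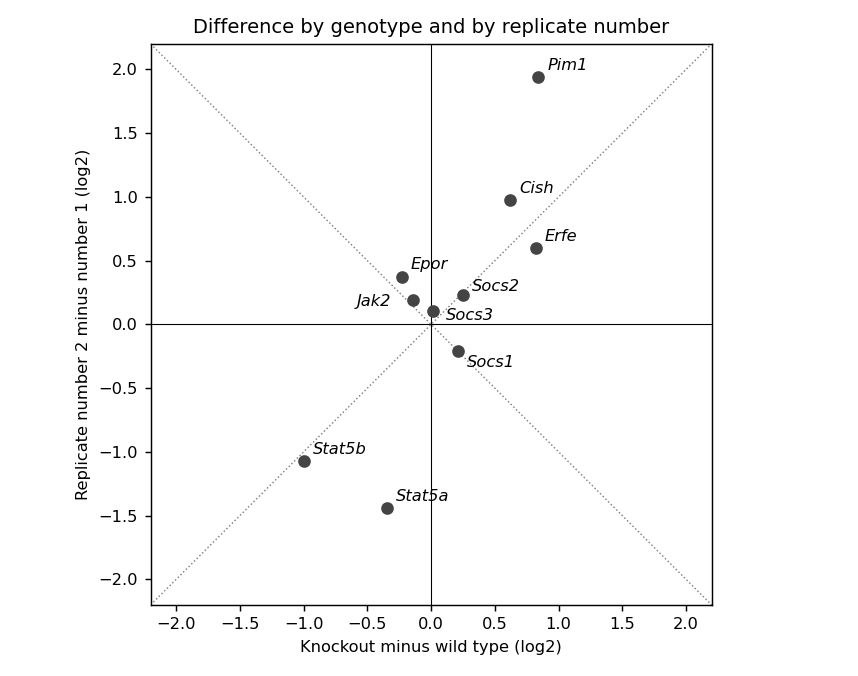
Difference between genotypes (x axis, knockout minus wild type) against difference between replicate numbers (y axis, number 2 minus number 1), both in log2 units, for the 10 genes. On the dotted diagonals both differences are of equal size; Pim1, Cish, Stat5a and Stat5b lie in the parts where the number made the larger difference, and Erfe where the genotype did.

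The summed level of erythroblast markers differed by the number too. The log2 of their summed linear values was 13.89 on WT1, 15.11 on WT2, 14.37 on KO1 and 14.95 on KO2, over 12 measured genes. The band 3 gene Slc4a1 was at 11.50 and 13.01 in wild type and at 12.24 and 12.78 in the knockout. Tfrc, which encodes CD71, was at 10.35, 11.43, 10.65 and 11.39 in the same order. Klf1 (9.52, 9.57, 9.93 and 9.32) and Gata1 (9.845, 9.61, 9.52 and 9.67) were not ordered by the number. Ermap differed by -0.067 and Alas2, the first enzyme of heme synthesis in red cells, by +0.55. The median difference of these markers between genotypes was +0.10, and it was -0.43 without WT1 and -0.092 without KO2. Of the 12 genes 0 were free of overlap, beside 26% of all genes. Bcl2l1, the survival gene that erythropoietin maintains through STAT5, ran from 6.17 in WT1 to 10.25 in WT2, and was at 8.82 and 10.23 in the knockout. The part of red cell maturation in the differences of Pim1, Cish, Stat5a and Stat5b between arrays was not tested, and in such bulk samples fewer cells of a type and less RNA per cell cannot be told apart.

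Other genes of the pathway were read from 4 lists, and 0 genes of any of them passed the limma test over all probe sets. Of 23 measured receptor and kinase signalling genes, 7 were higher and 16 lower in mean, with a median difference of -0.14 (+0.021 after repeated quantile normalisation). That median was -0.054 without KO2, -0.026 without WT1, -0.27 without WT2 and -0.39 without KO1. Vav1, a guanine nucleotide exchange factor of blood cells, was at 5.87 and 6.15 in wild type and 4.89 and 5.22 in the knockout (-0.96 ± 0.37). Kit, the stem cell factor receptor that works beside the erythropoietin receptor, was at 8.09 and 5.98 in wild type and 5.73 and 5.82 in the knockout. Its difference of -1.26 came mostly from WT1. The adaptor Grb2 (-0.42), the kinase Akt1 (-0.43) and Irs2 (+0.35) had the next lowest p. Tfr2, a transferrin receptor that associates with the erythropoietin receptor, differed by -0.014.

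The other STAT genes had a median difference of -0.58 over 4 measured genes, or -0.36 without KO2. Stat3, which acts downstream of many cytokine receptors, was at 7.19 and 6.98 in wild type and 6.71 and 5.86 in the knockout (-0.80 ± 0.42), without overlap. Stat6, which serves interleukin 4 signalling, was at 7.69 and 7.08 in wild type and 7.0 and 6.39 in the knockout (-0.69 ± 0.42), also without overlap. Stat2 (-0.46) overlapped and Stat4 differed by +0.033. With Stat5a and Stat5b, 5 of the 6 measured STAT genes had a lower mean in the knockout, where 58.5% of all genes had a higher one. Of these, Stat5a turned to +0.36 without KO2 and to +0.39 without WT1.

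Negative regulators of cytokine receptors had a median of -0.074 over 18 genes, of which 7 were higher and 11 lower. This median was +0.14 without KO2, -0.24 without WT1, -0.29 without WT2, -0.49 without KO1 and +0.068 after repeated quantile normalisation. For 6 of the 18 genes the knockout arrays lay wholly below and for 1 wholly above, beside 9.62% and 16.4% of all genes. Ptprc, the CD45 phosphatase of nucleated blood cells, was at 8.92 and 8.50 in wild type and 7.77 and 7.63 in the knockout (-1.01 ± 0.37). Pias1, an inhibitor of STAT activity, was lower in mean (-1.06 ± 0.42), as were the lipid phosphatase gene Inpp5d (-1.34 ± 0.59), the phosphatase gene Ptpn6 (-0.58 ± 0.41), which switches off the erythropoietin receptor, and Cblb (-0.49). Inpp5d was at 8.45 and 8.26 in wild type and 7.88 and 6.16 in the knockout, far lowest on KO2. Sh2b3, an adaptor that restrains JAK2, overlapped, at 6.63 and 7.31 in wild type and 6.72 and 7.73 in the knockout.

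Further targets of erythropoietin and STAT5 had a median of -0.096 over 18 genes, with 8 higher and 10 lower, and of +0.016 without KO1, -0.19 without KO2, -0.023 without WT1 and -0.21 without WT2. The cyclin gene Ccnd2 was at 7.69 and 7.08 in wild type and 6.46 and 6.18 in the knockout (-1.07 ± 0.39). Bcl6, a repressor that STAT5 keeps low in several blood cells, differed by -0.74 ± 0.37. Podxl, a surface glycoprotein of stimulated erythroblasts, was higher on both knockout arrays, at 5.75 and 5.61 against 5.26 and 4.84 (+0.63 ± 0.37). Its wild type values lay near or below the array medians (5.24 on WT1 and 5.34 on WT2). Ccnd1 (-0.48) and Bcl2l1 (+1.31 ± 1.22) had the next lowest p. The other kinases of the Pim family, Pim2 (+0.094) and Pim3 (+0.17), differed by less than Pim1 (+0.84), a gap between genes that was not tested.

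**Figure D4:**
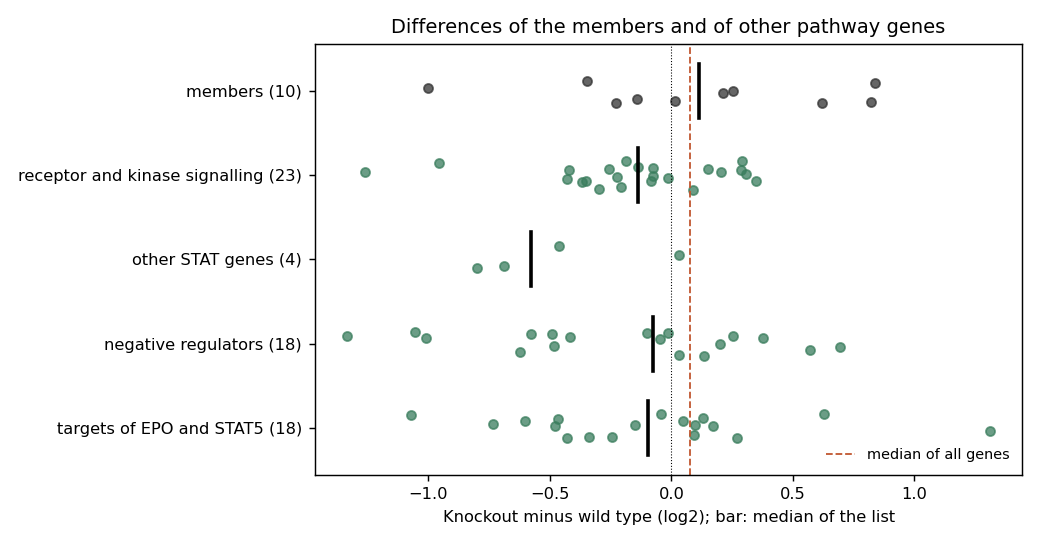
Difference in log2 expression value between knockout and wild type (x axis) of each measured gene (points) in the 10 members and 4 other pathway lists (y axis, number of genes in brackets), with black bars at list medians and a dashed line at the median of all genes (+0.076). The members spread on both sides of that line, and the other STAT genes have the lowest median (-0.58).

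Several of these genes are also active in white blood cells, whose markers had lower mean values in the knockout in most lists. Of the marker genes in these lists 0 passed the limma test over all probe sets, and the lists were not tested. Over all genes, for comparison, 58.5% had a higher mean in the knockout, and for 9.62% the knockout arrays lay wholly below. Of 18 neutrophil markers 18 were lower in the knockout, 16 without overlap, with a median of -1.59; the log2 summed level was 15.56 and 15.26 in wild type and 14.76 and 14.38 in the knockout. The brightest were S100a8 (-0.40), S100a9 (-0.43) and Camp (-1.07), S100a8 reading 12.67 to 13.25 over the 4 arrays. Of 12 B cell markers 10 were lower (median -1.03; summed 11.28 and 11.36 against 10.53 and 10.04), with Cd74 (-0.66), Vpreb3 (-1.44) and Cd79b (-1.03) the brightest. The neutrophil median was -0.85 without WT1 and -0.99 without KO2. Array values have no true zero, so no marker can be called absent.

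Of 15 monocyte and macrophage markers 13 were lower (median -0.68; summed 12.57 and 12.62 against 11.69 and 11.87), led in brightness by Lyz2 (-0.97), Cd68 (-1.02) and C1qc (-0.73). Of 12 mast cell, basophil and eosinophil markers 10 were lower (median -0.64; summed 11.16 and 10.31 against 9.51 and 9.68), led by Prss34 (-1.58), Hdc (-0.85) and Mcpt8 (-2.24). Of 11 T and NK cell markers 8 were lower (median -0.32; summed 10.05 and 9.48 against 8.71 and 9.01), led by Nkg7 (-1.63), Cd3e (-0.44) and Cd8a (+0.30). Of 7 megakaryocyte and platelet markers 5 were higher (median +0.20; summed 9.15 and 9.36 against 8.73 and 9.53), led by Gp9 (-0.62), Vwf (+0.080) and Itga2b (+0.20). With 1 array left out, the monocyte median turned to +0.043 (KO1 out) and the megakaryocyte median to -0.10 (WT1 out) and -0.058 (KO2 out). The mast cell median was -0.35 with WT1 out and -0.39 with KO1 out, and that of T and NK cells was -0.052 with KO1 out. The wild type arrays carried the higher summed level of white cell markers in each of the first 5 of these lists. A sum follows its brightest genes, such as Lyz2 (12.05 and 11.79 against 11.23 and 10.67) and Nkg7 (9.545 and 8.01 against 7.28 and 7.02). The knockout arrays lay wholly below for 8 of 12 B cell and 4 of 15 monocyte and macrophage markers. So they did for 4 of 12 mast cell, basophil and eosinophil and 3 of 11 T and NK cell markers. The share over all genes was 9.62%. They lay wholly above for 0 markers of these lists except 1 of T and NK cells. The part of these markers in the lower values of Stat5b, Stat3, Stat6, Ptprc, Inpp5d, Vav1 and Ccnd2 was not tested. Nor was their part in the higher values of Erfe, Pim1 and Cish.

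**Figure D5:**
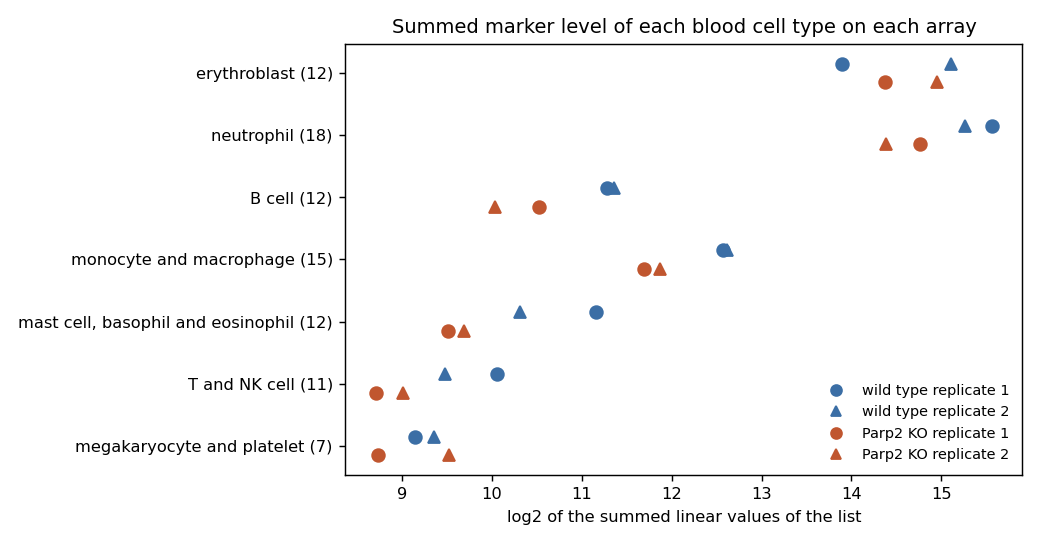
Log2 of the summed linear values of each marker list (y axis, number of measured genes in brackets) on each array (x axis), wild type in blue and Parp2 knockout in orange, circles for replicate 1 and triangles for replicate 2. The summed levels of the neutrophil, B cell, monocyte and macrophage, mast cell, and T and NK cell lists lie lower on both knockout arrays. Each sum follows the brightest genes of its list. The summed erythroblast level is ordered by replicate number.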

How the data were processed

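Total RNA (100 ng per sample, per the labels' protocols) was hybridised to Affymetrix whole-transcript arrays, 4 in all. The authors deposited a table of log2 expression values with 35511 rows; RMA, limma and R 3.0.2 are named in the submitters' processing notes, with no role given. RMA can shrink differences between dim signals, so folds of dim genes may be understated. The interquartile range also differed between arrays (1.98 on KO2 and 2.62 to 2.94 on the others). Repeated quantile normalisation, an alternative that gives all arrays the same distribution, changed the differences of dim members, as listed in the last section. The effect of the range on dim genes was not tested otherwise. The sources used here give no genome build for the array annotation, while the promoter windows are on GRCm38.p6.

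No further normalisation was applied to the deposited log2 values. The platform annotation named 23410 probe sets, of which 21789 had 1 gene symbol, giving 19938 genes. The test between genotypes was that of limma 3.58.1 (R 4.3.3; lmFit, eBayes, 2 residual and 4.77 prior degrees of freedom), with Benjamini-Hochberg adjustment over 23410 probe sets and a threshold of 0.05. An exact permutation test of 2 arrays against 2 cannot pass that threshold and was not used. The number of arrays limits the precision.

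The members and lists were chosen with earlier results of these data known. Named were the 10 members, Parp2, 5 genes of lowest p per pathway list, the 3 brightest of each marker list, genes needed to describe a role, and 3 genes most like Epor. Marker and pathway lists were given as counts and medians, with no test. The alternatives were the replicate block, leaving out each array, another threshold, all rows, array weights, the mean over probe sets, centring, a brightness filter, repeated quantile normalisation, and moderation with trend and robust fit.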

Additional observations from a re-analysis of the deposited data

How the results depend on the processing

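The count of members past the limma test was 0 in each of the 12 alternatives. The count over all probe sets (0) was 274 with the replicate block, 8 with trended and robust moderation, and 0 to 62 with 1 array left out, with 62 when WT2 was left out and 5 when WT1 was. Whether the replicate numbers pair the arrays cannot be decided from 2 pairs; across probe sets the difference of replicate 2 from replicate 1 in wild type correlated at 0.468 with that in the knockout, and the block changed no call on a member. With the block, which leaves 1 residual degree of freedom, 3 of 10 members (Stat5b, Pim1 and Erfe) had an unadjusted limma p under 0.05, as did 6.12% of all probe sets, and their adjusted p values from limma were 0.399, 0.712 and 0.7587. The median difference of the members (+0.11) was +0.0393 with arrays centred, +0.0942 after repeated quantile normalisation, +0.0138 among the brighter probe sets, where Socs2 had no value, and +0.0621 to +0.25 with 1 array left out; the replicate block left it at +0.11. With 1 array left out the difference of Epor ranged from -0.52 to +0.0603, of Jak2 from -0.48 to +0.19, of Stat5a from -1.08 to +0.39, of Cish from -0.0047 to +1.24, of Socs1 from -0.0458 to +0.47, of Socs3 from -0.22 to +0.25 and of Pim1 from -0.38 to +2.06. Jak2 also turned to +0.0406 after repeated quantile normalisation and Socs3 to -0.0592 with arrays centred. After that quantile normalisation Epor differed by -0.0454, Stat5a by -0.30, Stat5b by -0.94, Pim1 by +0.98 and Erfe by +1.01. Cish differed by +0.83, Socs1 by +0.29, Socs2 by +0.13 and Socs3 by +0.0544. Stat5b, Socs2 and Erfe kept their direction in every alternative in which they had a value. Their ranges were -1.75 to -0.25, +0.0185 to +0.49 and +0.38 to +1.26 when 1 array was left out. For Socs2 and Erfe, whose groups did not overlap, the sign with 1 array left out was fixed beforehand. The replicate block, trended and robust moderation, array weights and all rows left each member's difference at its main value, so they could turn no sign. Why values changed in the other alternatives was not tested.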
